A study of Mus musculus with 14 samples.

Results

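The 8 genes of ovulation and cumulus expansion were followed through the ovaries and uteruses of aged mice, out of 21853 genes measured. The members were named by symbol, with no rule on their values, although earlier results of these data were known. They were Areg, Ereg, Btc, Ptgs2, Has2, Tnfaip6, Ptx3 and Adamts1. RNA sequencing libraries came from 3 'old control' (OC) and 4 'old treatment' (OT) mice, with 1 ovary library and 1 uterus library under each mouse name, which gave 14 libraries. All were female C57BL/6J mice aged 28 weeks. The OT group received conditioned medium of human amniotic membrane-derived mesenchymal stem cells (AMSC-CM), mixed from 3 donors, into the tail vein, as 6 doses of 1 µL for each g of body weight with 4 days between doses, while OC mice were injected with saline. Mice of both groups had been given 10 IU of pregnant mare serum gonadotropin and, 48 h later, 10 IU of human chorionic gonadotropin before the first of these injections. The tissues were therefore not collected in the hours after an ovulatory dose of hormone, and the cycle stage at collection is not given in the sources used here.

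In a follicle about to ovulate, luteinizing hormone acts on its receptor on granulosa cells, which release the epidermal growth factor (EGF)-like ligands amphiregulin (Areg), epiregulin (Ereg) and betacellulin (Btc). These activate the EGF receptor on cumulus cells around the oocyte, where Ptgs2 makes prostaglandin precursors and Has2 makes hyaluronan. Tnfaip6 and Ptx3 crosslink the hyaluronan into the expanded cumulus matrix, and the protease Adamts1 cleaves versican in that matrix and in the follicle wall. In the intact animal most of these genes are induced for hours only, and Has2, Tnfaip6, Ptgs2 and Adamts1 also act in stroma, vessels and muscle of other organs.

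The 3 ligand genes lie on mouse chromosome 5 (GRCm38, mm10). Ereg spans chr5:91074622-91093646 and Areg chr5:91139599-91148432, both on the plus strand and 45.953 kb apart. Btc spans chr5:91357261-91402994 on the minus strand, 208.829 kb beyond Areg. The region from the start of Ereg to the far end of Btc covers 328.373 kb. The other members are dispersed: Ptgs2 at chr1:150100031-150108227 and Tnfaip6 at chr2:52038009-52056686 on the plus strand, Ptx3 at chr3:66219910-66225805 on the plus strand, Has2 at chr15:56665627-56694539 and Adamts1 at chr16:85793827-85803113 on the minus strand. Each is a protein-coding gene in GENCODE M21.

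Promoters of the ligands and of Adamts1 are shown because cyclic AMP, the messenger below the luteinizing hormone receptor, acts through cyclic AMP response elements. Of the 8 members, 6 matched an entry of the RefSeq promoter table (GRCm38.p6), and Has2 and Ereg did not. Each run gives the 250 bases before the start site, 5′ to 3′ on the strand of the gene, with matches of TGACGTCA, TGACG and TATAAA on either strand in capitals. The windows are chr5:91139349-91139598 (plus) for Areg, chr5:91402995-91403244 (minus) for Btc and chr16:85803114-85803363 (minus) for Adamts1.
Areg: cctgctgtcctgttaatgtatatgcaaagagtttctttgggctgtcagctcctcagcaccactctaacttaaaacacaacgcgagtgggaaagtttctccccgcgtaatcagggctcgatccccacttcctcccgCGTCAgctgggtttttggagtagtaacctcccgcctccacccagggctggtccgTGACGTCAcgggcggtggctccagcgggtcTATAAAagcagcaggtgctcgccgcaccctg
Btc: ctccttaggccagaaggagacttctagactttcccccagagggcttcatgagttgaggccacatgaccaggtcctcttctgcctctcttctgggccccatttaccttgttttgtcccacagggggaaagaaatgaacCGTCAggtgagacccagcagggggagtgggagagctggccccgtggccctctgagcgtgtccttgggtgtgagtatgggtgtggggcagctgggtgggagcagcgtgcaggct
Adamts1: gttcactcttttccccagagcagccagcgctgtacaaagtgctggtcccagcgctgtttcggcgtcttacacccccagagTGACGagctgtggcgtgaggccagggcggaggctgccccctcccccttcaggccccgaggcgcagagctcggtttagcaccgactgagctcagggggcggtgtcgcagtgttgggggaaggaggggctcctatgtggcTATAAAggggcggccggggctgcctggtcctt
Areg held the full cyclic AMP response element TGACGTCA, which starts 61 bases before its start site and contains both of the TGACG matches that overlap it, 1 on each strand. A further TGACG match lay 115 bases upstream on the minus strand, and TATAAA lay 31 bases upstream. Btc held only the shorter TGACG, 113 bases upstream on the minus strand. Adamts1 held TGACG 170 bases and TATAAA 32 bases upstream. Among the first 250 bases of 32851 RefSeq promoters, 1.55% held TGACGTCA, 17.8% TGACG and 12.4% TATAAA. The E-box CACGTG (6.02% of promoters) and CCAAT (33.8%) were also searched on both strands, and CCAAT was found in the Tnfaip6 window, at 152 bases (plus) and 81 bases (minus) upstream. These distances count from the RefSeq start of Tnfaip6 (chr2:52038113). That start lies inside the GENCODE span given above, which begins at chr2:52038009, so part of this window is within the span. Ptgs2 and Ptx3 held none of the motifs searched in these windows.

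The tissues carried their labelled identity. All 5 ovary genes checked (Foxl2, Amh, Zp3, Star and Inha) were called higher in the ovary, and all 5 uterus genes (Hoxa10, Hoxa11, Hoxd10, Myh11 and Hand2) were called higher in the uterus. FPKM (fragments counted on a gene, divided by the kilobases of its transcript and by the mapped fragments) summed to between 374816 and 397644 in the ovaries and between 425875 and 577494 in the uteruses. The ovaries differed among themselves in uterine genes. Hoxa10, a transcription factor of the uterus, was 53.4, 48.9, 27.7 and 23.4 FPKM in the OC2, OT3, OC3 and OT4 ovaries, but 6.09, 3.92 and 0.572 FPKM in the OT2, OC1 and OT1 ovaries. In the uteruses, the summed FPKM of 10 adipocyte genes was 82.9 to 213 in OC and 692 to 6264 in OT, and that of 10 genes of stratified squamous epithelium was 3.10 to 14.7 in OC and 49.4 to 943 in OT.

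Areg and Ereg were ovarian transcripts in these mice, and Btc was present in both tissues. Areg, a ligand of the EGF receptor, was 1.62, 0.627 and 0.994 FPKM in the OC1, OC2 and OC3 ovaries and 0.901, 1.48, 0.128 and 1.13 FPKM in the OT1, OT2, OT3 and OT4 ovaries. It was listed at 0 in 6 of the 7 uteruses and at 0.0990 FPKM in that of OT1. The ovary was above the uterus in 7 of 7 mice and the tissues did not overlap, although the mean of Areg over the 14 libraries fell below the minimum of 0.5 FPKM and kept it out of the test. With no minimum it was called higher in the ovary by limma (log2 difference 3.13, SE 0.40, adjusted p = 3.3e-05). It was also called where the OC2 mouse (3.28) or the OT3 mouse (3.39), those lowest in ovarian Areg, was left out. In those fits Areg reached the mean of 0.5 FPKM through its ovarian values, so these calls are no further support.

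Ereg, a ligand of the EGF receptor and of ERBB4, was 2.37, 1.88 and 2.74 FPKM in the OC ovaries and 1.20, 1.91, 1.98 and 1.61 FPKM in the OT ovaries. In the uteruses it was listed at 0 in all 3 OC libraries and in OT2, and at 0.102, 0.107 and 0.0396 FPKM in OT1, OT3 and OT4. The lowest ovary was thus above the highest uterus, and Ereg was called higher in the ovary by limma (log2 difference 4.04, SE 0.24, adjusted p = 2.04e-08) on log2(FPKM + 0.1). That size depends on the constant added to the zeros, and was 1.53 with 1 and 6.44 with 0.01 in place of 0.1. Ereg also passed the minimum of 0.5 FPKM only through the ovaries (mean 1.96 FPKM, against 0.0355 FPKM in the uteruses). The call is therefore no support beyond the listed values. Over all genes, 9.59% were called higher in the ovary and 10% were called lower in the ovary, at a log2 difference of at least 1 and an adjusted p under 0.05.

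Btc, which binds the EGF receptor and ERBB4, was 0.747, 0.217 and 1.25 FPKM in the OC ovaries and 0.846, 0.789, 1.53 and 1.48 FPKM in the OT ovaries. In the uteruses it was 1.10, 0.918 and 0.862 FPKM in OC and 1.34, 1.32, 1.19 and 0.610 FPKM in OT. The tissues overlapped, the ovary was the higher one in 3 of 7 mice, and the log2 difference was -0.25 (SE 0.32, adjusted p = 0.521 by limma). Epgn, the next EGF-like ligand gene of the cluster, averaged 0.0663 FPKM in the ovaries and 0.0488 FPKM in the uteruses, and Btc was at similar mean levels in both tissues, so that the ovarian pattern belonged to Ereg and Areg, the middle genes of the cluster.

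**Figure D1:**
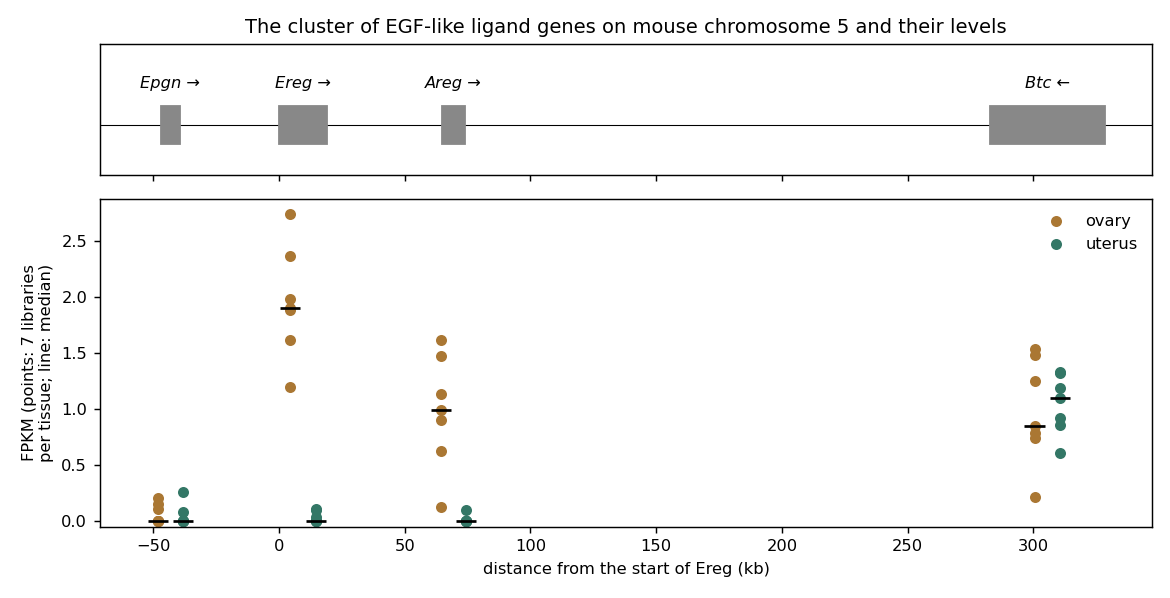
The upper panel shows 4 EGF-like ligand genes to scale by their distance in kb from the start of Ereg, with arrows for the direction of transcription, and the lower panel shows their FPKM in the 7 ovaries and 7 uteruses, with a line at each median. Ereg and Areg sit above their uterine points in all ovaries, Btc overlaps between the tissues, and Epgn is near 0 in both.

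None of the 3 ligands passed a treatment test in the ovary. Ereg was lower on average in OT (1.68 ± 0.354 FPKM, SD, n = 4) than in OC (2.33 ± 0.429 FPKM, n = 3), with the OT2 and OT3 ovaries above OC2 (log2 fold change -0.46, SE 0.23, unadjusted p = 0.0813, adjusted p = 0.997 by limma). The log2 fold change of Areg was -0.44 (SE 0.66, adjusted p = 0.997 by limma) and became 0.17 without the OT3 ovary. That of Btc was 0.77 (SE 0.51, adjusted p = 0.997 by limma), the only positive one among the 8 members in the ovary, and it ranged from 0.18 (unadjusted p = 0.659 by limma) without the OC2 ovary to 1.23 (unadjusted p = 0.0458 by limma) without the OC3 ovary. In the uterus, Btc gave 0.15 (SE 0.36, adjusted p = 0.891 by limma), and Areg and Ereg were too low to be tested.

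Of the partners of the ligands, Egfr and Adam17 were abundant in both tissues. Egfr, the EGF receptor, was 23.4 to 24.6 FPKM in OC and 21.7 to 26.7 FPKM in OT ovaries, and 29.5 to 34.5 FPKM in OC and 23.4 to 29.1 FPKM in OT uteruses. In the uterus all OT values of Egfr lay below all OC values without passing the test (log2 fold change -0.26, SE 0.13, unadjusted p = 0.0765, adjusted p = 0.616 by limma). Such a separation held for 5.48% of all genes tested in the uterus. Adam17, which sheds amphiregulin and epiregulin from the cell surface, was 18.6 to 24.2 FPKM in the ovaries and 17.4 to 24.8 FPKM in the uteruses, and its log2 fold change was -0.05 in the former and -0.11 in the latter. Of 13 genes of EGF receptors, other ligands and sheddases, the ovary fit tested 10 and the uterus fit 11. Of these, 0 had an unadjusted p of at most 0.05 in either. Between tissues 1 of 11 was called higher in the ovary (Tgfa, another ligand of the EGF receptor, log2 difference 2.04) and 3 were called higher in the uterus (Erbb2, Erbb3 and Erbb4). Erbb4 was low, at 0.0473 to 0.243 FPKM in the ovaries and 0.0896 to 2.29 FPKM in the uteruses.

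Ptgs2 was low, and higher in the ovary. This inducible cyclooxygenase was 2.73, 1.07 and 1.29 FPKM in the OC1, OC2 and OC3 ovaries and 0.631, 1.10, 2.34 and 1.01 FPKM in the OT1 to OT4 ovaries. It was 0.372, 0.737 and 0.394 FPKM in the OC uteruses and 0.977, 0.570, 0.305 and 0.690 FPKM in the OT uteruses. The OC1 and OT3 ovaries stood highest, and only the OT1 mouse had more Ptgs2 in the uterus than in the ovary, so that the ovary was higher in 6 of 7 mice. The log2 difference between tissues was 1.18 (SE 0.33, adjusted p = 0.00801 by limma), a call that was lost without the OC1 mouse (0.91) or the OT3 mouse (0.89), where the difference was below 1. OT and OC overlapped in both tissues. The log2 fold change in the ovary was -0.42 (SE 0.46), and ranged from -0.74 without OT3 to -0.03 without OC1. In the uterus it was 0.26 (SE 0.50), and ranged from 0.04 without OT1 to 0.52 without OC2.

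Of 16 prostaglandin enzymes, transporters and receptors, all were tested in both tissues and 0 were called in OT against OC. In the uterus 4 of the 16 (Ptges, Ptgis, Tbxas1 and Ptgir) had an unadjusted p of at most 0.05, all higher in OT, against 8.2% of all genes in either direction. In the ovary Tbxas1 was higher and Pla2g4a lower at that threshold. Ptges, the synthase that makes prostaglandin E2 from the product of Ptgs2, was 10.3 to 14 FPKM in OC and 12.7 to 21.3 FPKM in OT ovaries. In the uterus it was 4.24 to 4.73 FPKM in OC and 4.78 to 14.9 FPKM in OT, where the OT1 uterus, which also had the highest sum of adipocyte genes (6264 FPKM), was highest. The log2 fold change of Ptges in the uterus was 0.80 (SE 0.34, unadjusted p = 0.0468, adjusted p = 0.599 by limma). Like Ptgs2, Ptges was called higher in the ovary (log2 difference 1.21, SE 0.21).

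Has2 had its place in the uterus. The hyaluronan synthase was 4.46, 5.31 and 3.74 FPKM in the OC1, OC2 and OC3 uteruses and 2.47, 1.92, 1.76 and 3.07 FPKM in the OT1 to OT4 uteruses. In the ovaries it was 0.209, 1.26 and 0.863 FPKM in OC and 0.192, 0.397, 0.687 and 0.424 FPKM in OT. Every uterus was above every ovary, and the log2 difference was -2.44 (ovary minus uterus, SE 0.32, adjusted p = 2.91e-05 by limma).

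In the uterus the groups did not overlap for Has2: the mean was 4.51 ± 0.786 FPKM (SD, n = 3) in OC and 2.31 ± 0.594 FPKM (SD, n = 4) in OT. The log2 fold change was -0.95 (SE 0.25, unadjusted p = 0.00513, adjusted p = 0.485 by limma), which placed Has2 at rank 145 of 14151 genes by p but short of the cutoff of 1. It passed both cutoffs without the OC3 uterus (-1.08) or the OT4 uterus (-1.10). Over all genes tested in the uterus, 5.48% had every OT library below every OC library. In these bulk samples, fewer cells of a type and less RNA per cell cannot be told apart.

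In the ovary Has2 did not differ beyond the spread between replicates (log2 fold change -0.58, SE 0.59, unadjusted p = 0.35, adjusted p = 0.997 by limma), and single libraries moved the size either way. Without OC1 the value was -1.21 with an unadjusted p of 0.0434 by limma, while it was -0.39 without OC3 and -0.33 without OT1. The 3 ovaries highest in Has2 (OC2, OC3 and OT3) were also the 3 highest in Hoxa10, and the 2 lowest in Has2 (OC1 and OT1) were the 2 lowest in Hoxa10. Hoxa11 and Hand2 had these same highest and lowest ovaries, whereas Hoxd10 (highest in OT3, OT4 and OC2, lowest in OT1 and OT2) and Myh11 (highest in OC2, OT4 and OT3, lowest in OC1 and OT1) did not follow Has2 in full. The part of uterine or oviductal tissue in the ovarian level of Has2 was not tested.

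Tnfaip6, which transfers protein chains to hyaluronan, was 1.79, 1.74 and 2.07 FPKM in the OC ovaries, within a narrow range, and 0.682, 1.47, 4.21 and 1.42 FPKM in the OT ovaries. The spread in OT came from OT1, the lowest, and OT3, the highest, and the log2 fold change of -0.22 (SE 0.49) became 0.15 without OT1. In the uteruses it was 4.64, 5.46 and 2.76 FPKM in OC and 4.10, 2.93, 1.96 and 2.34 FPKM in OT, which overlapped (log2 fold change -0.58, SE 0.32, unadjusted p = 0.111, adjusted p = 0.625 by limma). Tnfaip6 was higher in the uterus in 6 of 7 mice, with OT3 as the exception. The log2 difference between tissues of -0.93 (SE 0.32, adjusted p = 0.0258 by limma) was short of the cutoff of 1 and passed it without the OC3 mouse (-1.10) or the OT3 mouse (-1.23).

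Ptx3, a pentraxin that holds the modified hyaluronan chains together, was not called between tissues. It was 1.25, 1.14 and 1.06 FPKM in OC and 0.742, 0.524, 1.25 and 1.14 FPKM in OT ovaries, and 1.27, 0.493 and 1.45 FPKM in OC and 1.99, 0.884, 1.11 and 1.34 FPKM in OT uteruses. The OT1 and OT2 ovaries were below all OC ovaries and the other 2 OT ovaries were within the OC range. The log2 fold change was -0.37 (SE 0.33) in the ovary and 0.35 (SE 0.44) in the uterus, and the uterine value became -0.08 without the OC2 library. The tissues differed by -0.15 (SE 0.27, adjusted p = 0.662 by limma).

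Among 17 partners in the hyaluronan matrix, the fits tested 11 in the ovary and 10 in the uterus, with 0 called in either. Vcan, which encodes the versican core protein that Adamts1 cleaves, was 57.8 to 61.3 FPKM in the OC ovaries and 35.4, 49.7, 55.0 and 44.4 FPKM in the OT1 to OT4 ovaries. All OT ovaries were below all OC ovaries, with a log2 fold change of -0.40 (SE 0.13, unadjusted p = 0.0168, adjusted p = 0.997 by limma). Over all genes tested in the ovary, 3.13% had every OT library below every OC library, and 4.51% had an unadjusted p of at most 0.05 in either direction. In the uterus Vcan overlapped between the groups (log2 fold change 0.04, SE 0.28). Cd44, the cell surface receptor of hyaluronan, had a log2 fold change of 0.17 in the ovary against 0.28 in the uterus, and Itih5, of the family whose chains Tnfaip6 transfers, gave 0.04 and 0.16. Of this list, Vcan (log2 difference 1.21), the link protein gene Hapln1 (1.13) and Cemip, which takes part in hyaluronan breakdown (5.44), were called higher in the ovary. Itih5 (-1.20) and Lyve1, a hyaluronan receptor of lymphatic vessels (-1.92), were called higher in the uterus.

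Adamts1 was by far the most abundant member in both tissues, and it was lower in every OT library than in every OC library in both. In the ovaries it was 58.4, 80.3 and 59.1 FPKM in OC1, OC2 and OC3 and 19.9, 49.6, 53.9 and 49.6 FPKM in OT1 to OT4. In the uteruses it was 91.2, 99.2 and 96.7 FPKM in OC and 58.0, 52.7, 62.7 and 67.7 FPKM in OT. The gap in the uterus was wide, from 67.7 to 91.2 FPKM, and that in the ovary was narrow, from 53.9 to 58.4 FPKM, with the OT1 ovary far below all others.

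**Figure D2:**
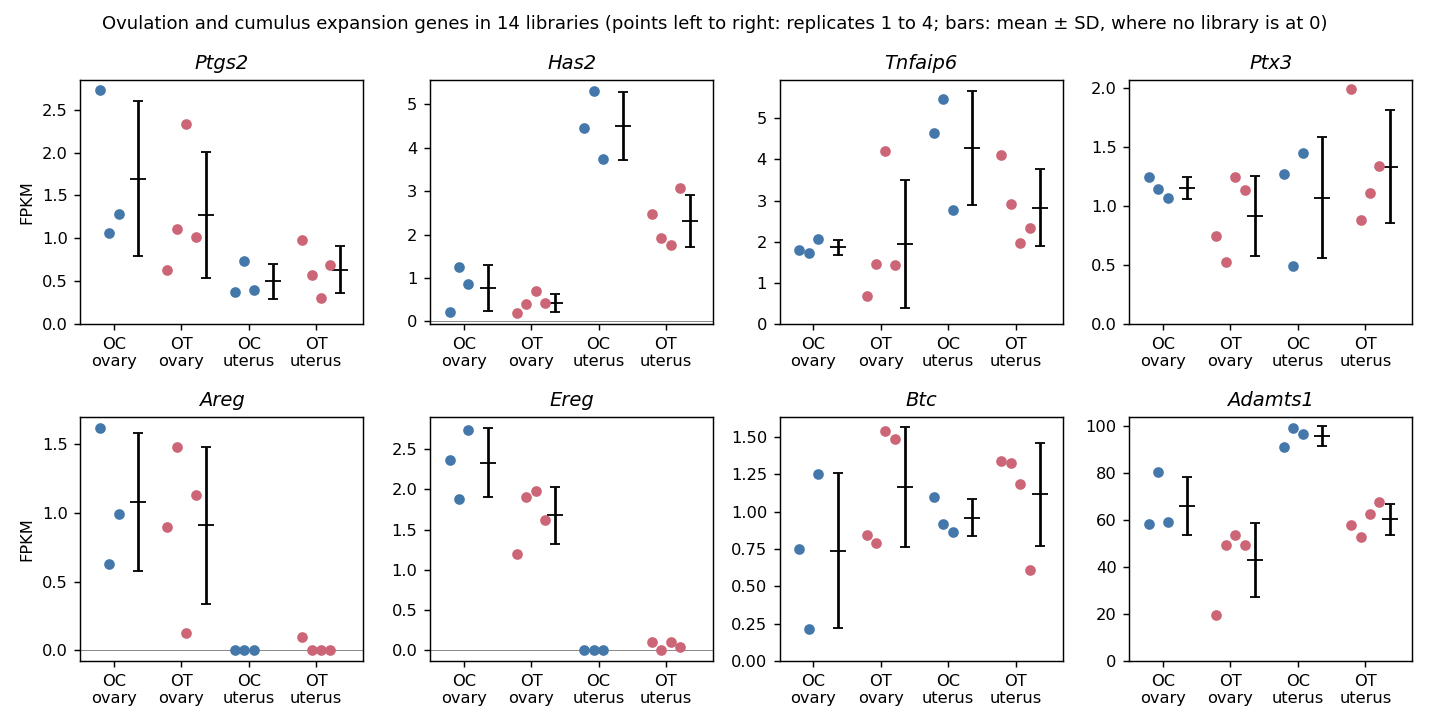
FPKM of the 8 genes in each library by group, with points from replicate 1 on the left to the last replicate on the right and bars for the mean ± SD in groups without a library at 0. The OC and OT uteruses are separate for Has2 and Adamts1, and Areg and Ereg are near 0 in the uteruses.

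The mean of Adamts1 in the uterus was 95.7 ± 4.08 FPKM (SD, n = 3) in OC and 60.3 ± 6.42 FPKM (SD, n = 4) in OT. The log2 fold change was -0.67 (SE 0.13, unadjusted p = 0.000656, adjusted p = 0.357 by limma), which ranked 20 of 14151 genes by p. It did not pass the adjustment over all genes or the cutoff on fold change. Over 17 alternatives of processing and left-out libraries it ranged from -0.82 to -0.61, with unadjusted p from 0.000432 to 0.0283 by limma.

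In the ovary the mean was 65.9 ± 12.4 FPKM (SD, n = 3) in OC and 43.3 ± 15.7 FPKM (SD, n = 4) in OT, with a log2 fold change of -0.69 (SE 0.33, unadjusted p = 0.0647, adjusted p = 0.997 by limma). Without the OT1 library the fold change was smaller, -0.35, and the unadjusted p was 0.0231. In the ovary 3.13% of all tested genes had every OT library below every OC library, and in both tissues at once this held for 37 of 13653 genes tested in both (0.271%), Adamts1 among them. The OC and OT groups of both tissues are the same mice. Adamts1 was higher in the uterus in 7 of 7 mice, by a log2 difference of 0.56 that was short of the cutoff (ovary minus uterus -0.56, SE 0.19, adjusted p = 0.0252 by limma).

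Marker genes of several cell types also differed between OC and OT. In the uteruses the OT libraries had more of all 10 adipocyte genes at the cutoffs and of 8 of the 9 squamous genes tested, with Sprr3 at 0 in all 14 libraries. The summed smooth muscle genes were 8243 to 9727 FPKM in OC and 10194 to 15362 FPKM in OT uteruses, and the summed uterine epithelium genes were 443 to 456 FPKM in OC and 185 to 436 FPKM in OT. The fibroblast and stroma genes overlapped, at 6080 to 6444 FPKM in OC and 6115 to 8037 FPKM in OT. Hoxa10 was 214 to 236 FPKM in OC and 138 to 186 FPKM in OT uteruses (log2 fold change -0.46, SE 0.14, unadjusted p = 0.0121, adjusted p = 0.549 by limma). The summed macrophage genes were 376 to 436 FPKM in OC and 437 to 1404 FPKM in OT uteruses, with Cd163 called higher and 3 of 10 higher at an unadjusted p of at most 0.05. The summed mesothelium genes overlapped, at 238 to 279 FPKM in OC and 202 to 473 FPKM in OT, with a median log2 fold change of 0.75. The part of these tissues in the uterine values of Adamts1 and Has2 was not tested.

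In the ovaries 5 of 10 adipocyte genes were called higher in OT (median log2 fold change 1.38), and their sum was 196 to 264 FPKM in OC and 228 to 1072 FPKM in OT. Of 10 macrophage genes 5 had an unadjusted p of at most 0.05, all higher in OT, with sums of 311 to 416 FPKM in OC and 405 to 594 FPKM in OT. The OT1 library had the lowest Adamts1, the lowest summed smooth muscle genes (948 FPKM against 1325 to 2921 FPKM in the others), the lowest Hoxa10 and the highest sum of adipocyte genes (1072 FPKM). It also had 45.7 FPKM of the immediate early gene Fos, against 2.43 to 6.14 FPKM in the other ovaries, and the OT1 uterus had 47.3 FPKM. The OC2 ovary was highest in Adamts1, in summed smooth muscle genes and in Hoxa10. Whether any of these bears on the ovarian value of Adamts1 was not tested.

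**Figure D3:**
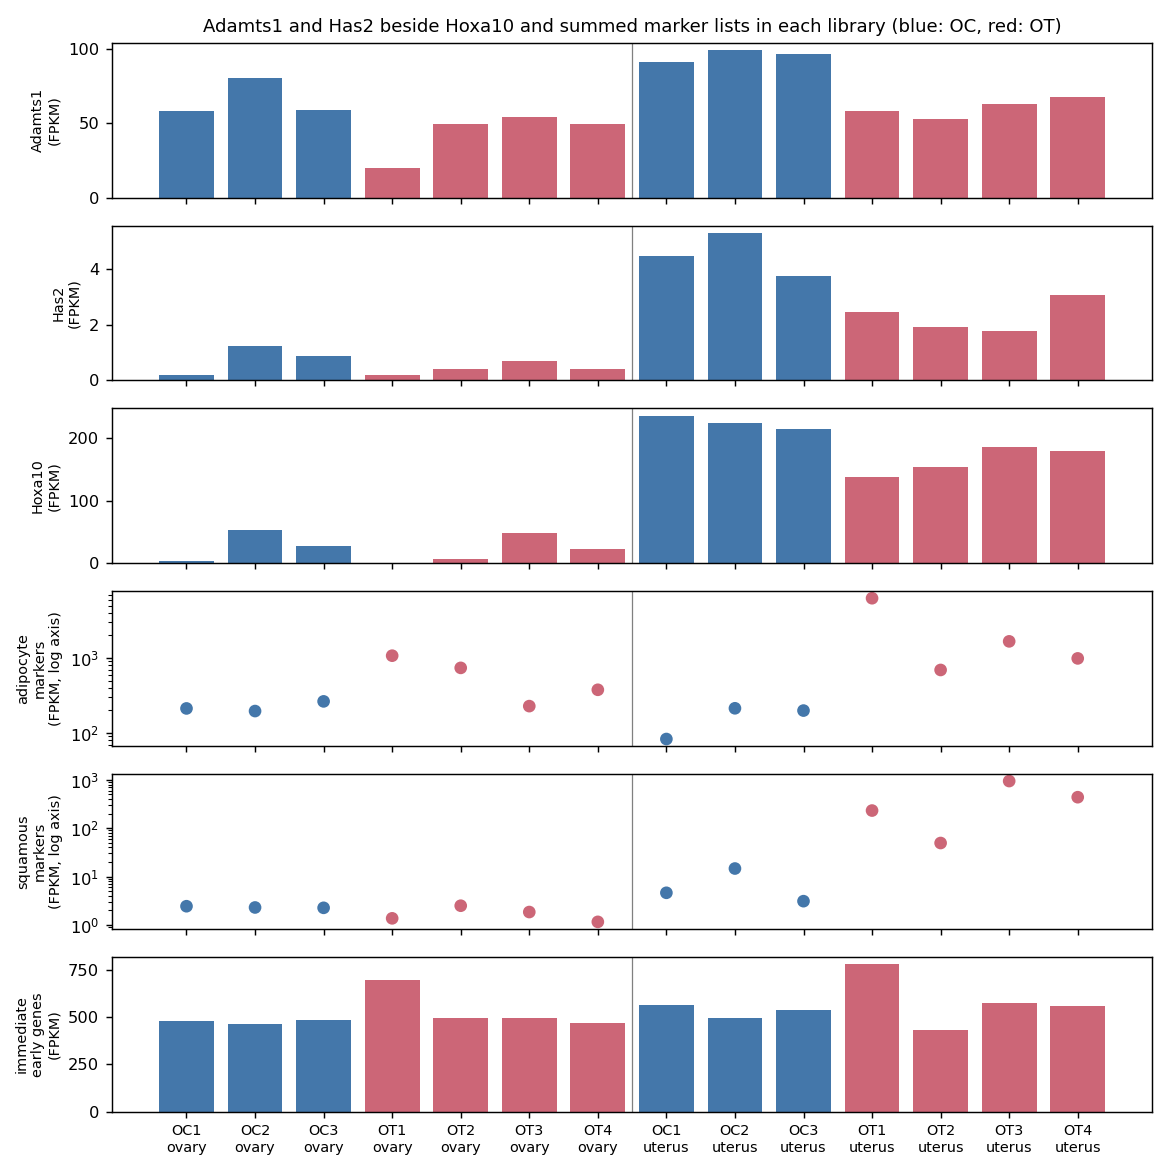
Adamts1, Has2 and Hoxa10 in FPKM, and the summed FPKM of adipocyte, squamous epithelium and immediate early genes, in each of the 14 libraries (blue OC, red OT, with log axes for the adipocyte and squamous sums). The OT uteruses have lower bars of Adamts1, Has2 and Hoxa10 and higher adipocyte and squamous points than the OC uteruses, and Has2 in the ovaries is high where Hoxa10 is high.

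Of 16 other aggrecanases, follicle wall proteases and inhibitors, 15 were tested in each tissue and 0 were called in either treatment comparison. In the uterus Mmp9 and Plau had an unadjusted p of at most 0.05, both higher in OT. Adamts4, another protease of versican, was 10.9 to 11.7 FPKM in OC and 7.85 to 11.1 FPKM in OT ovaries, and 9.03 to 12.1 FPKM in OC and 6.55 to 9.52 FPKM in OT uteruses. Its log2 fold changes were -0.26 (SE 0.12) in the ovary and -0.42 (SE 0.18) in the uterus, with unadjusted p of 0.0652 and 0.0515, and it was singled out after its values were seen.

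As a list, the 8 members gave 0 calls in the ovary and 0 in the uterus, where 0.451% and 2.9% of all tested genes were called at a log2 fold change of at least 1 either way and an unadjusted p of at most 0.05. All 8 were tested in the ovary and 0 had an unadjusted p of at most 0.05, against 4.51% of all genes. In the ovary 7 of the 8 had a log2 fold change below 0, as did 53.4% of all tested genes, and their median was -0.43 against -0.01 over all. The OT1 ovary was the lowest library for 5 of the 8. In the uterus 6 were tested, 3 were below 0, and the median was -0.22 against 0.01 over all. Has2 and Adamts1, both lower in OT, were the 2 with an unadjusted p of at most 0.05, which 8.2% of all genes had in either direction and 3.05% in the lower direction. At an adjusted p under 0.05 by limma there were 0 members in either tissue.

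**Figure D4:**
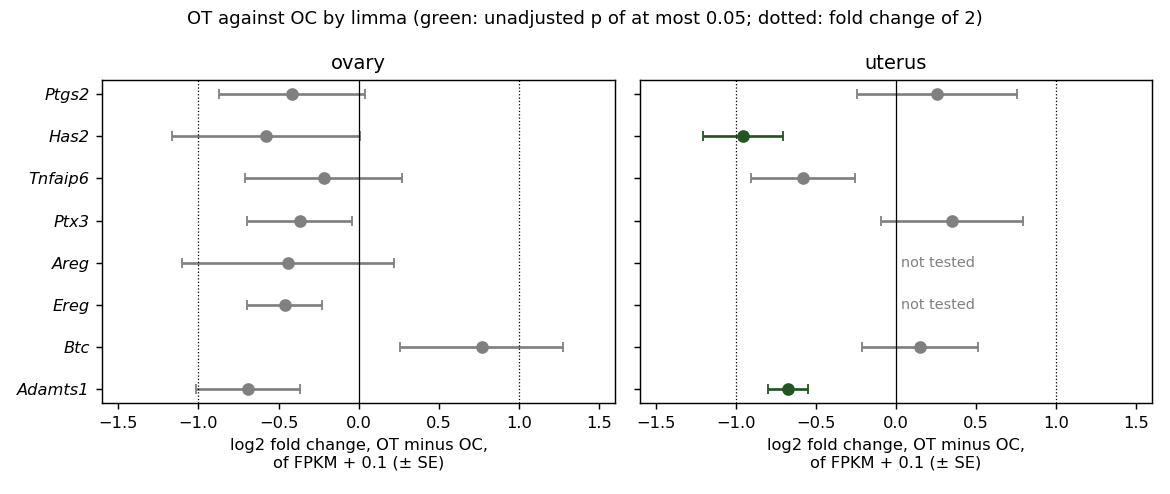
Log2 fold changes of OT against OC on log2(FPKM + 0.1), with SE bars, for the 8 genes in the ovary (left) and uterus (right), in green where the unadjusted p by limma was at most 0.05. Only Has2 (-0.95) and Adamts1 (-0.67) in the uterus are green, and no gene lies beyond the dotted lines at a log2 fold change of 1 either way.

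The response to treatment was not shown to differ between the tissues for any member. In the fit of all 14 libraries, 0 of 7 members tested had an adjusted p under 0.05 for the difference of the fold changes, and the smallest was 0.844. Of these, 1 had an unadjusted p of at most 0.05 by limma, against 5.12% of all genes. It was Ereg, with a difference of -1.10 (ovary minus uterus, SE 0.48, unadjusted p = 0.0409, adjusted p = 0.844 by limma). With the mouse as a block, since both tissues came from the same mice, its unadjusted p was 0.0845 by limma and 0 members remained at that threshold. That value rests on uterine levels at or near 0. The fold changes of Adamts1 in the ovary (-0.69) and uterus (-0.67) differed by -0.02 (SE 0.39).

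Between the tissues, 3 of 7 members tested were called, Ereg and Ptgs2 higher in the ovary and Has2 higher in the uterus. Of all genes tested, 9.59% were called higher in the ovary and 10% were called lower in the ovary. The call of Ptgs2 was lost without the OC1 mouse, without the OT3 mouse, with a pseudocount of 1 and with quantile normalization. By mean FPKM, which is scaled to gene length, the ovarian order was Adamts1 (53.0 FPKM), Ereg (1.96), Tnfaip6 (1.91), Ptgs2 (1.45), Ptx3 (1.01), Areg (0.982), Btc (0.981) and Has2 (0.575). Below Adamts1, neighbours in this order differed by less than the larger of their SDs. In the uterus the order was Adamts1 (75.5 FPKM), Tnfaip6 (3.46), Has2 (3.25), Ptx3 (1.22), Btc (1.05), Ptgs2 (0.578), and Ereg and Areg at or near 0. Tnfaip6 and Has2, and likewise Ptx3 and Btc, differed there by less than the larger of their SDs, while Has2 and Ptx3, and likewise Btc and Ptgs2, differed by more.

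**Figure D5:**
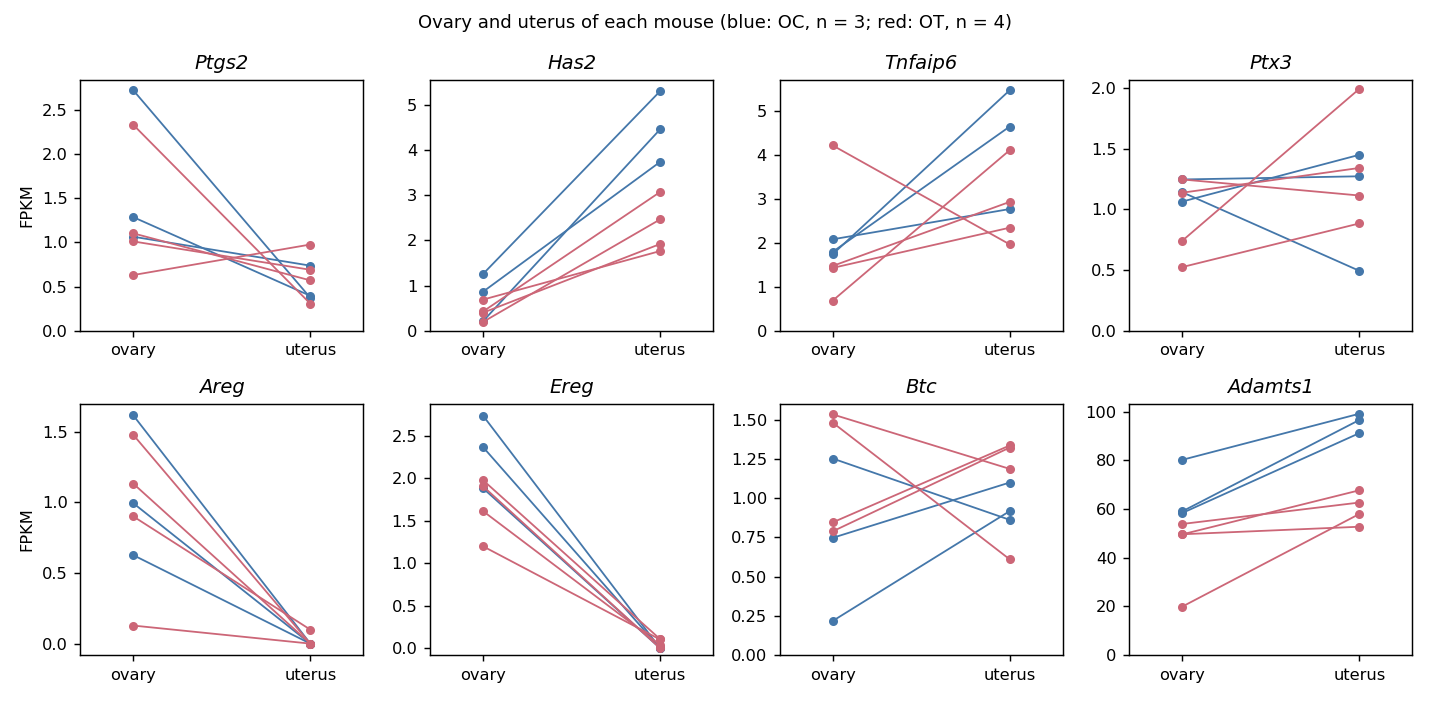
FPKM in the ovary and uterus of each mouse, joined by a line (blue OC, red OT), for the 8 genes. All 7 lines descend for Areg and Ereg and all 7 ascend for Has2 and Adamts1, while those of Btc and Ptx3 cross.

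The ovulatory signalling genes were present in the ovary. Lhcgr, the luteinizing hormone receptor, was 76.0 to 78.1 FPKM in OC and 62.2 to 87.9 FPKM in OT ovaries (log2 fold change 0.03, SE 0.11) and at most 0.184 FPKM in the uteruses. Lhcgr is also 1 of the 10 luteal and steroidogenic markers, whose sum was 6083 to 7339 FPKM in OC and 5850 to 7338 FPKM in OT ovaries. Its follicular and luteal parts cannot be told apart in these bulk samples. Pgr, the progesterone receptor that drives Adamts1 in granulosa cells, was 8.70 to 17.5 FPKM in OC and 4.83 to 16.6 FPKM in OT ovaries (log2 fold change -0.35, SE 0.42). It was higher in the uterus, at 54.5 to 94.5 FPKM in OC and 37.9 to 75.2 FPKM in OT (log2 fold change -0.31, SE 0.28). Of the 15 gonadotropin receptors and ovulatory transcription factors, all were tested in the ovary with 0 called, and 11 in the uterus with 2 called.

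The 2 called in the uterus were higher in OT. Cebpa was 7.44 to 13.8 FPKM in OC and 21.3 to 125 FPKM in OT uteruses (log2 fold change 1.74, SE 0.60, unadjusted p = 0.0197, adjusted p = 0.55 by limma). Pparg was 2.82 to 4.33 FPKM in OC and 11.2 to 74.0 FPKM in OT (log2 fold change 2.40, SE 0.62, unadjusted p = 0.00478, adjusted p = 0.485 by limma). Both genes also direct the differentiation of adipocytes, and the OT1 uterus, with the highest adipocyte sum, was the highest for both.

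Of 18 oocyte factors and other ovulation effectors, 15 were tested in the ovary with 0 called and 11 in the uterus with 1 called. This was Cited4, a transcriptional coactivator, at 93.8 to 141 FPKM in OC and 24.3 to 78.6 FPKM in OT uteruses (log2 fold change -1.14, SE 0.40, unadjusted p = 0.0216, adjusted p = 0.55 by limma). In the ovary Cited4 was 69.8 to 81.7 FPKM in OC and 44.0 to 67.9 FPKM in OT (log2 fold change -0.35, SE 0.14, unadjusted p = 0.0369, adjusted p = 0.997 by limma). Of 20 immediate early genes, 19 were tested in each tissue and 0 were called in either by limma. The paper, which used Cuffdiff, lists Fos and Fosb of these as higher in OT in both tissues. The OT1 library was the highest for both genes in each tissue. The cells of the follicle were measured beside these lists: 0 of 10 granulosa and cumulus markers, 0 of 9 oocyte markers and 0 of 10 luteal markers tested had an unadjusted p of at most 0.05 in the ovary.

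The genes whose levels ran most alike with each member were found by Pearson's r over the 14 libraries, after each tissue's mean was subtracted from log2(FPKM + 0.1). Libraries of the same group and mouse share their source, so r is given as a description, and the candidates were 13652 or 13653 genes above 0.5 FPKM in both tissues. The means of OC and OT were not subtracted, so a difference between the groups that 2 genes share also enters r, as for Adamts1 and Has2. For Areg and Ereg the uterine part of r comes from values at or near 0. For Adamts1 these were Nts (0.89), Hoxa9 (0.87) and Atp8b1 (0.86), and for Has2 they were Hgf (0.92), Vit (0.92) and Atp8b1 (0.90). Atp8b1 was thus in the first 3 of both. For Ereg they were Uchl5 (0.92), S100a11 (0.89) and Nipa2 (0.88), for Areg Rfx2 (0.89), Tcf15 (0.82) and Ppdpf (0.79), and for Btc C130050O18Rik (0.87), Thap7 (0.81) and Tmem219 (0.77). For Ptgs2 they were Clcc1 (0.83), Mtf2 (0.83) and Lyrm4 (0.81), for Tnfaip6 1700037C18Rik (0.85), 9130008F23Rik (0.84) and Stag1 (0.80), and for Ptx3 Gtf2e2 (0.84), Ptpn5 (0.83) and Spryd7 (0.81). No member was among the first 3 of another member.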

How the data were processed

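Expression was measured in the ovary and the uterus of each of 7 mice (3 OC, 4 OT), and libraries were grouped by their labels. Per the labels, libraries were made with a stranded total RNA kit after rRNA removal. For each gene the authors deposited an FPKM value. Their trimmer was Skewer 0.2.2, and the submitters' processing notes name STAR 2.5, Cufflinks 2.2.1 and the mm10 build. The FPKM were not scaled further. Depth is unknown, as the Cufflinks estimates are fractional and whole reads could not be recovered, so that the precision of low values such as those of Areg is set by the spread between libraries alone. Cuffdiff, the tool of the study, needs the reads and was not run.

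All 21853 gene identifiers matched GENCODE M21 (GRCm38). Genes whose mean FPKM reached 0.5 over the libraries of a fit entered limma 3.58.1 (lmFit, then eBayes with a trend, R 4.3.3) on log2(FPKM + 0.1), each tissue alone for OT against OC, and all 14 libraries in 4 groups for the tissues and for the difference of the treatment effects. Fold changes on this scale understate those of low genes. A gene was called at the cutoffs of the study (absolute log2 fold change of at least 1, unadjusted p of at most 0.05), and between tissues at an absolute log2 difference of at least 1 and a Benjamini-Hochberg adjusted p under 0.05 over all tested genes. Steps were tested on simulated data.

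The genes named were the 8 members, the direct partners Egfr, Lhcgr, Pgr, Vcan, Cd44, Ptges, Itih5 and Adam17, the listed genes called in a treatment comparison, and the 3 genes most like each member. Outside this rule, identity and marker genes, Epgn as a neighbour in the cluster, listed genes called between tissues or at an unadjusted p of at most 0.05, Hoxa10, Fos and Adamts4 were added once their values had been seen. Members, lists and partners were chosen with earlier results of these data known. The replicate numbers come from the labels. An OC and an OT library that share a number come from different mice and were not paired. Ovary and uterus libraries with the same number and group share a mouse name in the labels, and the correlation of their deviations from the group means was 0.07 to 0.25, so that the mouse was also fitted as a block. The alternatives were other pseudocounts, filters, scalings and eBayes options, a block, a joint fit, and leaving out each library in turn.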

Additional observations from a re-analysis of the deposited data

Results flagged for a closer look

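One library stood far from the others of its group. Adamts1 was 19.9 FPKM in the OT1 ovary, while the other 3 OT ovaries lay between 49.6 and 53.9 FPKM, and the gap to the nearest of them was 0.875 of the range of the group. Of 14 groups of 4 OT libraries tested over the members, this was the only one with such a library. The cutoff for a flag is one that chance passes in about 1 in 20 groups of normally distributed values, and this gap was above that cutoff. The 14 groups come from the same 4 OT mice and are not independent, so how often chance gives 1 flag among them was not tested.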

How the results depend on the processing

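Depth is unknown, so that its limit on low members such as Areg could not be measured, and 3 against 4 libraries leave wide errors. In the ovary, members called numbered 0, and 0 to 1 when 1 library was left out (Has2 without OC1, Btc without OC3). Members with an unadjusted p of at most 0.05 numbered 0, but 1 in the fit of all 14 libraries, and 0 to 1 with 1 library left out (OC1, OC3, OT1 or OT3). With 1 library left out, the log2 fold change of Tnfaip6 ranged from -0.67 to 0.15 (without OT1) and that of Areg from -0.76 to 0.17 (without OT3). In the uterus, members called numbered 0, and 0 to 1 with 1 library left out (Has2 without OC3 or OT4). Those with an unadjusted p of at most 0.05 numbered 2, but 1 in the fit of all 14 libraries, which did not count Has2, and 2 to 3 with 1 library left out. With 1 library left out, Ptx3 ranged from -0.082 (without OC2) to 0.61.

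The replicate numbers do not pair OC with OT mice: deviations of same-numbered libraries correlated at 0.33, 0.04 and 0.08 in the ovary and at 0.08, 0.00 and -0.03 in the uterus. With the number as a block, which leaves out OT4, 1 member (Adamts1, -0.79) had an unadjusted p of at most 0.05 in the ovary and 1 member (Has2, -1.10) was called in the uterus. With the mouse as a block, 3 members were called between tissues, as without it, and no other call changed.

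Between tissues, members called numbered 3, and 2 to 4 with 1 mouse left out. With a minimum mean of 2 FPKM 0 were called, as Ereg, Ptgs2 and Has2 were no longer tested. Ptgs2 fell short of the cutoff with a pseudocount of 1 (0.62) and quantile normalization (0.78), and Tnfaip6 passed it with quantile normalization (-1.06). With 1 mouse left out, Ptx3 ranged from -0.37 to 0.0042 (without OC3) and Btc from -0.52 to 0.025 (without OC2), and quantile normalization gave -0.47 and -0.69. The difference of treatment effects between tissues had 0 members called under every alternative. Its sign turned in Has2 (-0.25 without OC1, up to 0.69), in Tnfaip6 (-0.24 without OT3, up to 0.92) and in Adamts1, which gave 0.014 with scaling to the 75th percentile, 0.080 with quantile normalization, and -0.18 to 0.30 with 1 mouse left out (0.10 without OC2, 0.30 without OT1). Where no library is named, the cause of a change was not tested.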
